A study of Mus musculus with 24 samples.

Results

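Gabra6, Cbln1, Cbln3, Pcp2, Fat2, Zic1, Zic2, En2 and Car8 are markers of the cerebellum, and they were measured in RNA taken from the mouse visual cortex. They are 9 of the 55414 genes in the count table, picked by symbol because a few libraries held high counts of them. Their levels, and the counts of them that pass a test, are therefore given only as a description. The study asked how the psychedelic psilocybin and exposure to light affect gene expression in visual cortex. Male C57BL/6J mice of about 8 weeks, kept on a reversed light cycle, received PBS or 5 mg/kg psilocybin by intraperitoneal injection, and the tissue was taken after 2.5 h in the light or the dark. Poly-A RNA gave 24 libraries, 6 in each of 4 sets. No source used here states that each library came from a separate mouse, so p-values measure the spread between these libraries.

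The sets are PBS libraries 1 to 6, psilocybin libraries 7 to 12, PBS libraries 13 to 18 and psilocybin libraries 19 to 24. The sample labels place libraries 1 to 12 in the light and 13 to 24 in the dark. The headings of the study's supplementary count table give the reverse, with the same drug for every library. The sets are therefore named by drug and library number, and no value below depends on which source is right, but the 2 light conditions are not assigned here. No label sets any library apart within its set. Libraries held between 13552516 and 17906994 counted reads, with a median of 16235866, and levels are given as CPM, the count scaled to 1000000 counted reads. Over 60 pairs of libraries within a set, the lowest chi-square per degree of freedom was 3.02, so no pair agreed within sampling noise. Reads carry no molecular identifiers, so every interval covers counting error only.

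The cerebellum lies behind the cortex and has a small set of very distinct neurons. Granule cells, the most numerous neurons of the brain, send parallel fibres through the molecular layer to the dendrites of Purkinje cells, whose axons are the only output of the cerebellar cortex. Adult granule cells express the GABA-A receptor subunit alpha 6 (Gabra6), the secreted synapse organizers Cbln1 and Cbln3 of the C1q family, the large atypical cadherin Fat2 and the zinc finger transcription factors Zic1 and Zic2. Purkinje cells express Pcp2 (also called L7), which binds heterotrimeric G proteins, and Car8, a carbonic anhydrase-related protein that binds the inositol trisphosphate receptor. En2 is a homeobox factor of the midbrain and cerebellar territory. In bulk tissue, a higher level may come from more cells of a type or from more RNA per cell, and these cannot be told apart.

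On GRCm39, Gabra6 (ENSMUSG00000020428) lies at chr11:42197264-42211910, Fat2 (ENSMUSG00000055333) at chr11:55141435-55227483, Cbln1 (ENSMUSG00000031654) at chr8:88195033-88199261 and Pcp2 (ENSMUSG00000004630) at chr8:3673371-3675545. Cbln3 (ENSMUSG00000040380) lies at chr14:56116370-56121849, Zic1 (ENSMUSG00000032368) at chr9:91240111-91247863 and Car8 (ENSMUSG00000041261) at chr4:8141533-8239088. All of these are on the minus strand. Zic2 (ENSMUSG00000061524), at chr14:122711827-122717264, and En2 (ENSMUSG00000039095), at chr5:28370689-28377195, are on the plus strand. The 9 genes thus sit on 6 chromosomes, and the promoters of those that rose and fell together are shown to compare their start-site sequence. The RefSeq promoter table (GRCm38.p6) holds Gabra6, Cbln3, Pcp2, Fat2 and Zic1. Each sequence runs from 250 bases before the RefSeq start to 50 after it, on the minus strand. The stretches lie at chr11:42321023-42321322 for Gabra6, chr14:55884207-55884506 for Cbln3, chr8:3625498-3625797 for Pcp2 and chr11:55312208-55312507 for Fat2. By the coordinates given here, the RefSeq start of Fat2 lies inside the gene, so its stretch may not be its promoter. Capitals mark the only matches, on either strand, to TTGGCA (part of the binding site of Nfi factors) and AGGTCA (part of that of nuclear receptors).
Gabra6: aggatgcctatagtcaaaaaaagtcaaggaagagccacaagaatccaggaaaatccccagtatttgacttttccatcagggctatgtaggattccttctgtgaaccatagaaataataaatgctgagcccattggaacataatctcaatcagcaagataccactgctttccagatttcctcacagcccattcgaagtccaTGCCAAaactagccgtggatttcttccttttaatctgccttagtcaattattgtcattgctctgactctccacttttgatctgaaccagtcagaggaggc
Cbln3: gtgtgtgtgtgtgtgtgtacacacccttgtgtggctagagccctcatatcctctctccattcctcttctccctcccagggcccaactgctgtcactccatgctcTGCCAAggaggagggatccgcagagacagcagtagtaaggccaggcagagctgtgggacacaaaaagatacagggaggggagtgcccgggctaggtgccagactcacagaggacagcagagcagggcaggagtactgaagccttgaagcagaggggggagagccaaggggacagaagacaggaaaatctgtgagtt
Pcp2: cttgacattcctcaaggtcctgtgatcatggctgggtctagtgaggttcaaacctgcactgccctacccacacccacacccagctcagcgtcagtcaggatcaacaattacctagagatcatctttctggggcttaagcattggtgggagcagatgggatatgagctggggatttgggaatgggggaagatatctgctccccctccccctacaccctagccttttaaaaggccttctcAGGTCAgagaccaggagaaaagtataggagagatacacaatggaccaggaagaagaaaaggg
Fat2: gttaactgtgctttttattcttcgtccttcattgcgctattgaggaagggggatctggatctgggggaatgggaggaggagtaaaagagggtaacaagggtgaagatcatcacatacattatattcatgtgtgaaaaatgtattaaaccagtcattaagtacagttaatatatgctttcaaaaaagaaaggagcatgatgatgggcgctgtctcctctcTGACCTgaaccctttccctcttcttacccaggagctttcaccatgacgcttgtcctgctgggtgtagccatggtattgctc
Gabra6 and Cbln3 each held 1 match to TTGGCA, which 14.4% of 27025 promoters of the same length hold. Fat2 and Zic1, which are granule cell genes too, held none. Pcp2 and the stretch of Fat2 each held 1 match to AGGTCA, which 16.0% of promoters hold. The promoter of Zic1 held neither, and CAGCTG, an E-box present in 16.1% of promoters, was in none of the 5.

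4 libraries stood far above the other 20 for every one of the 9 genes: PBS libraries 1 and 6, psilocybin library 12 and PBS library 18. Library 6 was the highest for all 9. The summed level of the 9 genes was 5184 CPM in library 6, 2600 in library 1, 2376 in library 12 and 1477 in library 18. The next were 198.4 CPM in library 3, 143.5 in library 9, 134.9 in library 5 and 116.3 in library 23, and the lowest was 34.1 in library 20. The median of the 24 libraries was 64.5 CPM. The same 4 libraries led when any gene was left out of the sum and when library sizes were scaled by TMM.

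**Figure D1:**
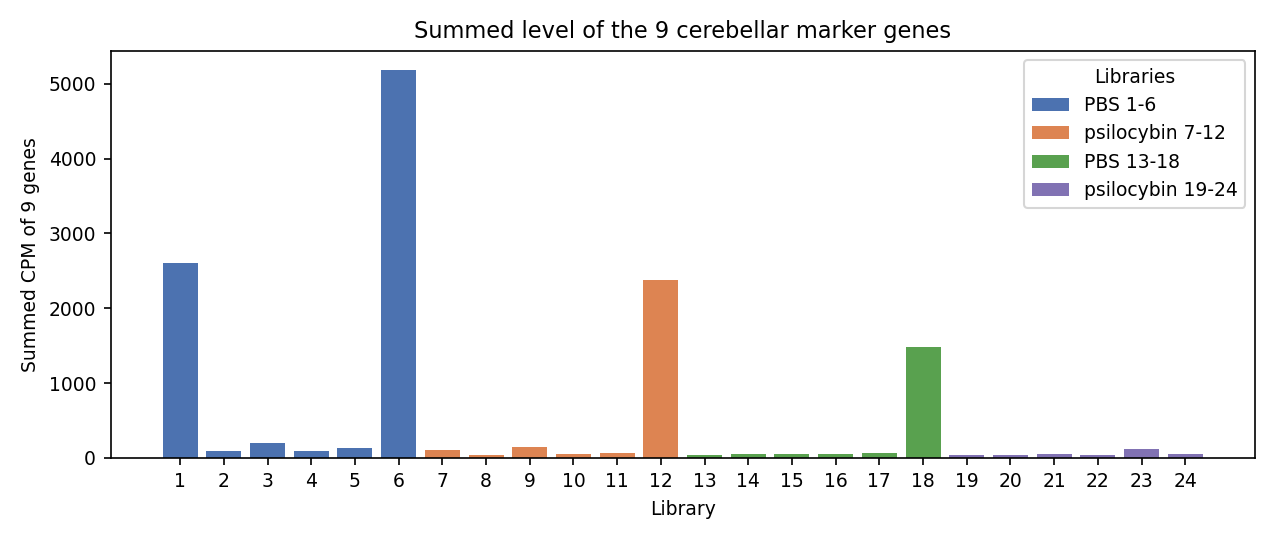
Summed CPM of the 9 cerebellar marker genes (y axis, linear from 0) in each of the 24 libraries (x axis), coloured by set. Libraries 6, 1, 12 and 18 reach 5184, 2600, 2376 and 1477 CPM, and no other library passes 198.4.

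Gabra6, the subunit that marks mature granule cells, went from near absence to high counts. It had 7803 counts in library 6 (459.0 CPM), 3430 in library 1 (206.1 CPM), 3004 in library 12 (193.3 CPM) and 2159 in library 18 (138.4 CPM). The highest of the other 20 libraries, library 5, had 102 counts. In PBS libraries 1 to 6, the lowest, median and highest levels were 0.827, 6.18 and 459.0 CPM. Psilocybin libraries 7 to 12 gave 0, 0.337 and 193.3 CPM, and PBS libraries 13 to 18 gave 0, 0.0292 and 138.4 CPM. Psilocybin libraries 19 to 24, which include none of the 4, gave 0, 0.121 and 1.90 CPM. The 4 ranges overlapped, and 3 of the sets each held at least 1 high library beside low ones. Gabra6 had 0 counts in 7 libraries, and the limit of 3 counts that this allows corresponds to 0.168 to 0.215 CPM.

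Cbln3, which assembles with Cbln1 in granule cells, had the highest counts of the granule cell genes in the 4 high libraries. It reached 1042 CPM in library 6, 461.5 in library 1, 444.1 in library 12 and 231.7 in library 18, and its next highest level was 13.4 CPM in library 3. Its lowest, median and highest levels were 1.89, 13.3 and 1042 CPM in PBS libraries 1 to 6, and 0.148, 1.24 and 444.1 CPM in psilocybin libraries 7 to 12. In PBS libraries 13 to 18 they were 0.259, 0.487 and 231.7 CPM, and in psilocybin libraries 19 to 24 they were 0.114, 0.738 and 4.35 CPM. From high to low, the medians ran in the order of PBS 1 to 6, psilocybin 7 to 12, psilocybin 19 to 24 and PBS 13 to 18, with overlapping ranges throughout.

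Fat2, the cadherin found along parallel fibres, followed the same libraries, at 503.5 CPM in library 6, 242.5 in library 1, 196.6 in library 12 and 129.5 in library 18. Its levels in the other 20 libraries ran from 0 (library 22, limit 0.206 CPM) to 8.35 CPM. Cbln1, the partner that bridges parallel fibres to Purkinje cells, is also expressed outside the cerebellum, and it was never absent. It was 676.6 CPM in library 6, 367.5 in library 1, 338.0 in library 12 and 211.6 in library 18, and between 4.93 and 69.7 CPM elsewhere. Among the low libraries, Cbln1 was highest in libraries 3, 7, 5 and 4, at 69.7, 44.2, 37.0 and 27.3 CPM.

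Zic1 and Zic2, the transcription factors that granule cells keep into adulthood, had a base level in every library. Zic1 reached 606.0 CPM in library 6, 304.0 in library 1, 273.5 in library 12 and 182.4 in library 18, against 6.46 to 27.3 CPM in the other 20. Zic2 reached 208.2, 113.6, 99.3 and 72.1 CPM in the same libraries, against 8.83 to 26.0 CPM elsewhere. Zic2 therefore showed the smallest contrast, with its highest library at 11.9 times the median of the 24. That ratio was 39.9 for Zic1, 52.2 for Cbln1, 579.5 for Fat2, 876.4 for Cbln3 and 1268 for Gabra6.

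The Purkinje cell genes were high in the same libraries as the granule cell genes. Car8 had the highest counts of all 9 genes, at 1363 CPM in library 6, 730.1 in library 1, 661.7 in library 12 and 414.3 in library 18. Elsewhere it ran from 8.31 to 45.5 CPM, with libraries 9, 3 and 23 at 45.5, 43.0 and 42.8 CPM. Pcp2 was 217.1 CPM in library 6, 106.7 in library 1, 126.5 in library 12 and 72.9 in library 18. Its next highest level was 9.75 CPM, in psilocybin library 23, and it had 0 counts in library 7 (limit 0.221 CPM). After the 4, library 23 was highest for Pcp2 and En2, library 9 for Car8, library 4 for Zic2 and library 3 for the remaining 5 genes. The highest library was 765.3 times the median for Pcp2 and 107.9 times for Car8.

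En2, the homeobox factor, had the lowest counts of the 9 genes in the 4 high libraries. It was 108.7 CPM in library 6, 67.6 in library 1, 42.8 in library 12 and 24.6 in library 18, with 3.62 CPM in library 23 next. Per kilobase of exon, levels in library 6 were highest for Cbln1 (221.0 RPKM), Cbln3 (214.2 RPKM) and Gabra6 (183.6 RPKM). Pcp2 followed at 118.7, Zic1 at 106.5, Car8 at 91.4, Zic2 at 52.9, Fat2 at 34.4 and En2 at 23.2 RPKM. The medians over 24 libraries were ordered otherwise, with Zic2 (4.43 RPKM) and Cbln1 (4.23 RPKM) at the head, Zic1 at 2.67 and the remaining 6 genes between 0.0594 and 0.848 RPKM.

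**Figure D2:**
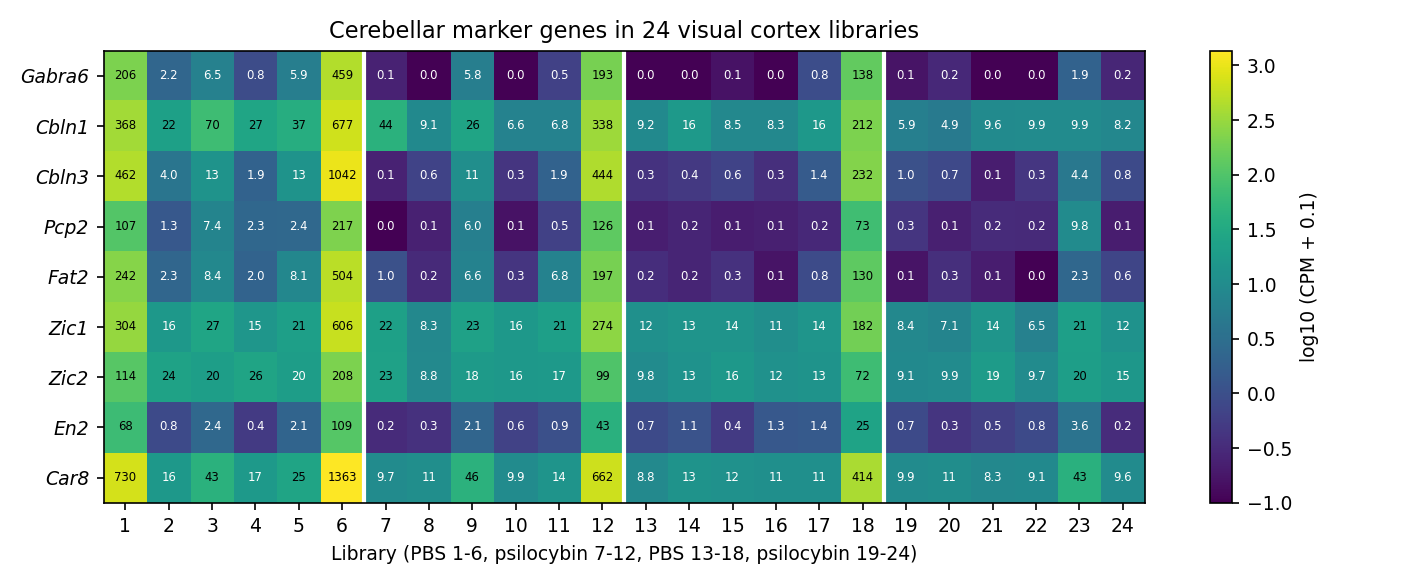
CPM of each of the 9 genes (rows) in each library (columns, white lines between sets), coloured by log10 of CPM plus 0.1 and printed in the cells, rounded. All 9 rows are brightest in libraries 1, 6, 12 and 18, and library 23 is bright next for Pcp2 and En2.

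Exons of 6 of the 9 genes overlap a gene on the opposite strand, and the strand setting of the counting is not given in the sources used here. The partners of Cbln3, Pcp2, Zic1 and Zic2 (Khnyn, Pet100, Zic4 and 2610035F20Rik) had highest counts of 820, 160, 475 and 100, below the lowest count of the member in libraries 1, 6, 12 and 18. Gm19872, beside Cbln1, had no count, and Gm74198, beside Fat2, was not analysed here. Values for these 6 genes carry that limit.

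The 9 genes rose in similar proportions across the 4 high libraries. The rise of each gene over its median of 24 libraries was expressed as a percentage of its rise in library 6. In library 1 this was 44.2% to 61.9%, with a median of 49.1% over the 9 genes. In library 12 it was 38.9% to 58.2%, with a median of 42.9%, and in library 18 it was 22.0% to 33.5%, with a median of 28.6%. En2 was at the upper end in library 1 (61.9%) and at the lower end in libraries 12 (38.9%) and 18 (22.0%). Pcp2 was at the upper end in libraries 12 (58.2%) and 18 (33.5%). In the next libraries the medians were 1.55% for library 3, 1.19% for library 9, 1.14% for library 5 and 1.05% for library 23.

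**Figure D3:**
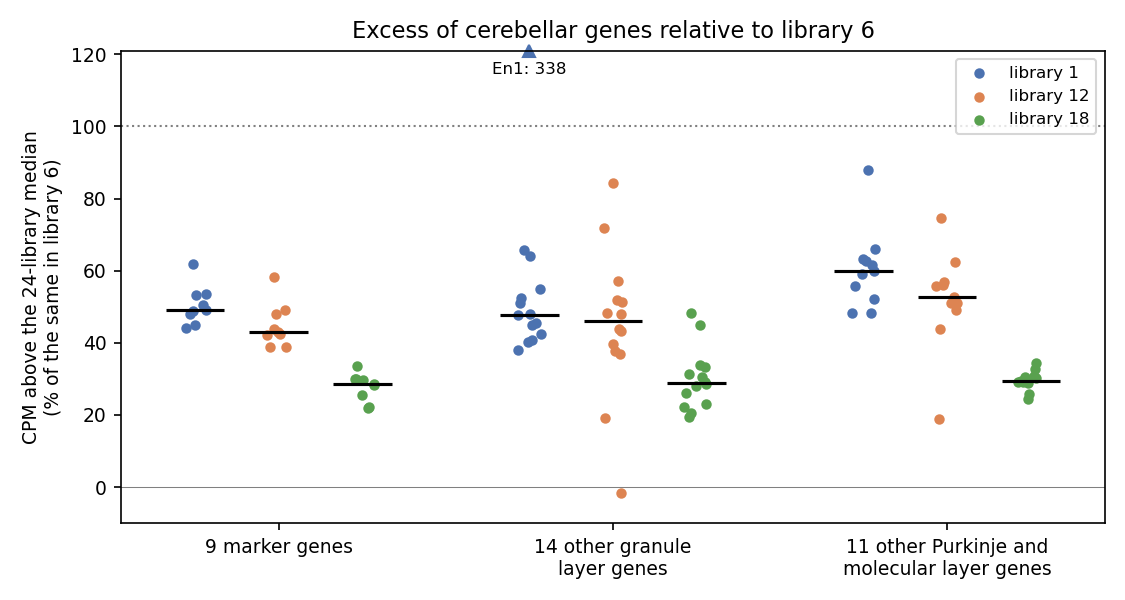
CPM above the 24-library median, as a percentage of the same quantity in library 6 (y axis), for libraries 1, 12 and 18 and 3 groups of cerebellar genes (x axis). Points are genes, black lines are medians, the dotted line marks 100% and the triangle marks En1 in library 1 at 338.3%. For the 9 marker genes the medians step from 49.1% to 42.9% to 28.6%.

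The ratio of 2 granule cell genes was alike in 3 of the 4 high libraries. Gabra6 made up 30.6% of the summed counts of Gabra6 and Cbln3 in library 6 (95% exact binomial interval, Clopper-Pearson, 30.01% to 31.1%), 30.9% in library 1 (30.01% to 31.7%) and 30.3% in library 12 (29.4% to 31.2%). Library 18 was higher, at 37.4% (36.1% to 38.7%). Among libraries with lower counts it was 35.5% in library 2 (26.5% to 45.35%), 32.7% in library 3 (27.4% to 38.3%) and 30.8% in library 5 (25.9% to 36.1%). It was 34.7% in library 9 (29.05% to 40.6%) and 30.4% in library 23 (21.7% to 40.3%).

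The ratio of a Purkinje cell gene to a granule cell gene varied more. Pcp2 made up 17.2% of the summed counts of Pcp2 and Cbln3 in library 6 (16.7% to 17.7%), 18.8% in library 1 (18.0% to 19.6%), 22.2% in library 12 (21.3% to 23.0%) and 23.9% in library 18 (22.7% to 25.2%). Libraries 5 and 2 were at 15.2% (11.1% to 20.0%) and 24.2% (15.8% to 34.3%), while libraries 3 and 9 were at 35.5% (30.2% to 41.0%) and 35.6% (29.98% to 41.6%). Library 23 was at 69.1% (62.7% to 75.0%), with 159 counts of Pcp2 and 71 of Cbln3, and library 4 at 54.9% (42.7% to 66.8%), with 39 and 32. Library 23 thus held more Pcp2 than Cbln3, the opposite of the 4 high libraries, while the interval of library 4 includes equal counts. Neither interval overlaps those of the 4.

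Other cerebellar genes were high in the same libraries. The 2 lists come from general knowledge of the cerebellum, but were set with earlier results of these data known. Of 14 further granule layer genes, 12 had their 4 highest CPM in libraries 1, 6, 12 and 18, and so did 11 of 11 further Purkinje and molecular layer genes. Over all 14464 genes tested, 6.98% (1010 genes) did so. Barhl2, Eomes and Skor2 reached 30 counts only in those 4 libraries, so the share was also taken over genes with 30 counts in another library, a choice made after seeing the data. It was then 20 of 22 (90.9%) for the other cerebellar genes and 6.34% for 14135 genes. These 4 libraries held the 4 lowest values of another 191 genes, 1.32%. The exceptions were the granule cell factor Barhl1, which library 23 also expressed at 155 counts against 95 in library 18, and the homeobox gene En1.

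Ppp1r17, a phosphatase inhibitor of Purkinje cells, had 3115 counts in library 6, 1478 in library 1, 1459 in library 12 and 868 in library 18, and at most 73 in the other 20. Homer3, a postsynaptic scaffold of Purkinje cells, had at least 1237 in the 4 libraries and at most 224 elsewhere. Skor2, a corepressor of Purkinje cell development, had at least 80 and at most 11. On the granule side, Barhl2 had at least 115 counts in the 4 and at most 23 elsewhere, and the cadherin Cdh15 at least 197 and at most 51. Eomes, a factor of unipolar brush cells, the excitatory interneurons of the granular layer, had at least 70 and at most 12. Genes that cortex also expresses rose from a higher base: Rgs8, a regulator of G protein signalling, had at least 6946 against at most 2418, and the glutamate receptor subunit Grin2c at least 1817 against at most 1083.

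The medians of the rise relative to library 6 were near those of the 9 for the granule layer genes and higher in libraries 1 and 12 for the Purkinje and molecular layer genes. For the 14 granule layer genes the medians were 47.9% in library 1, 45.9% in library 12 and 28.9% in library 18, and for the 11 Purkinje and molecular layer genes they were 59.9%, 52.7% and 29.5%. Single genes spread more widely than the 9, in library 12 from -1.76% (En1) to 84.3% (Grin2c) on the granule list and from 19.0% to 74.7% on the other. Library 23 had a median of 4.04% over the 11 Purkinje and molecular layer genes and 1.61% over the 14 granule layer genes. En1 departed most: it had 193 counts in library 1, 59 in library 6, 0 in library 12, 19 in library 18 and 54 in library 23.

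The genes whose levels most resembled the 9 were ranked by Pearson r over 24 libraries, between each gene's log2 CPM and the mean of the 9 genes' standardized log2 CPM. The points share 4 high libraries, so r is a description. The first were Atp2a3, a calcium pump of the endoplasmic reticulum (r = 0.987, Spearman rho = 0.926), Sycp1, a protein of the meiotic synaptonemal complex (r = 0.983, rho = 0.836), and Crtam, an immunoglobulin-family adhesion molecule (r = 0.982, rho = 0.814). Ppp1r17 (0.982), Homer3 (0.981), the kinase gene Nrk (0.978), Gm13944 (0.976), Cnpy1 (0.976), Arhgef33 (0.974) and Plekhd1 (0.973) followed. Without library 6 the 10 values of r ran from 0.963 (Plekhd1) to 0.983 (Atp2a3), with the other high libraries still included. Sycp1, Crtam, Nrk and Gm13944 reached 30 counts only in the 4 high libraries, with at most 5, 19, 24 and 5 elsewhere. They passed the filter through those libraries, so nothing is read from their r. Crtam had at least 286 counts in each of the 4 libraries and at most 19 elsewhere, and Atp2a3 at least 1427 and at most 313.

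Genes of other regions followed these 4 libraries less uniformly. Of the tested genes on each list, libraries 1, 6, 12 and 18 were the 4 highest for 2 of 12 midbrain and hindbrain genes (Tfap2b and Slc6a5), 1 of 8 thalamic genes (Prkcd) and 1 of 6 hippocampal genes (Prox1), where 6.98% of all genes did so. The count was 0 of 8 for striatum, 0 of 4 for olfactory bulb, 0 of 6 for choroid plexus, 0 of 13 for meninges and 0 of 10 for cortex. Summed levels of the midbrain and hindbrain list were highest in library 1 (135.1 CPM), against a median of 9.26 CPM in its set. They were 78.6 CPM in library 6 and 34.0 CPM in library 12, then 30.21 CPM in library 14, 30.19 CPM in library 18 and 26.1 CPM in library 23. Slc6a5, the glycine transporter of hindbrain and cerebellar inhibitory neurons, had 672 counts in library 1, 499 in library 6, 152 in library 12 and 106 in library 18, and at most 0.613 CPM elsewhere.

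Library 1 also held transcripts that were low in every other library, named here after their values were seen. Th, the enzyme that starts catecholamine synthesis, had 362 counts in library 1 and at most 30 in any other library. The dopamine transporter Slc6a3 had 178 and at most 7. The thalamic list was highest in library 1 (293.4 CPM), library 23 (260.0 CPM) and library 6 (206.1 CPM). Tcf7l2, a thalamic transcription factor, had its highest count in library 23, at 913.

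Cortical genes were lower in the 4 libraries than in most others. The summed cortical list was 1462 CPM in library 1, 1952 in library 6, 3201 in library 12 and 3457 in library 18, each the lowest of its set except library 6, which came after library 1. The set medians were 3134, 4285, 4797 and 4606 CPM, in order of library number. Slc17a7, the vesicular glutamate transporter of cortical excitatory neurons, was 749.4, 1150, 1579 and 1526 CPM in libraries 1, 6, 12 and 18, with a median of 1762 CPM over 24. Nrgn, a calmodulin-binding protein of forebrain neurons, was 502.0, 403.0, 1080 and 1442 CPM, with a median of 2058. Cortical genes were thus present in all 24 libraries, as the tissue label says. The meningeal list ranged from 209.7 to 449.8 CPM in PBS libraries 1 to 6 and was highest in library 18 (488.3 CPM). The part of these other lists in the cerebellar levels was not tested.

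**Figure D4:**
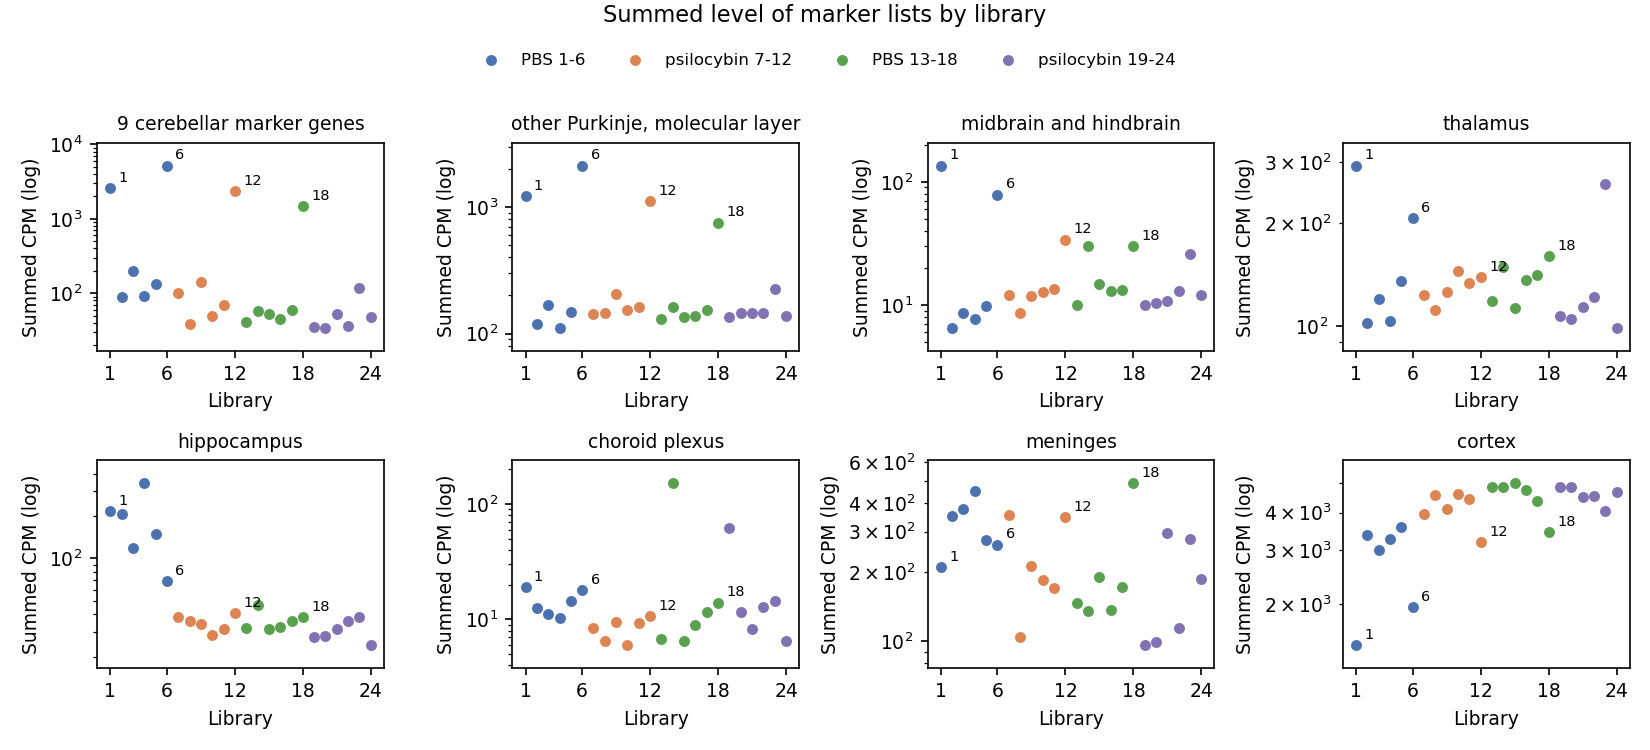
Summed CPM (y axes, log scale) of 8 marker lists against library number (x axes), coloured by set, with libraries 1, 6, 12 and 18 numbered. The 4 numbered libraries are the highest for the cerebellar lists and each set's low end for cortex, while choroid plexus peaks in library 14 and hippocampus in library 4.

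Psilocybin was compared with PBS within each light condition, and the light conditions were compared within each drug, with edgeR's quasi-likelihood test over 14464 genes. None of the 9 genes passed an adjusted p of 0.05 in any of 5 comparisons, although all 9 had a fitted log2 fold change below 0 in each of the 4 pairwise ones. The comparisons of psilocybin 7 to 12 and of PBS 13 to 18 with PBS 1 to 6 share their 6 PBS libraries. For psilocybin 7 to 12 minus PBS 1 to 6, 0 of 9 passed, where 24.7% of all genes did, and the median log2 fold change of the 9 was -1.52 against -0.02 for all genes. For psilocybin 19 to 24 minus PBS 13 to 18 it was 0 of 9, with 0.608% of all genes, and a median of -2.44. For PBS 13 to 18 minus PBS 1 to 6 it was 0 of 9, with 31.9% of all genes, and a median of -2.18. For psilocybin 19 to 24 minus psilocybin 7 to 12 it was 0 of 9, with 6.38%, and a median of -3.11. The interaction, which subtracts the first psilocybin difference from the second, gave 0 of 9, with 8.75%, and a median of -0.99. At an unadjusted p under 0.05 the counts were 0, 4, 1, 6 and 0 in that order, and DESeq2 called 0, 0, 1 (Zic2), 3 (Cbln1, Cbln3 and Fat2) and 0. DESeq2 called 17.8% and 4.61% of all genes lower in the comparisons with 1 and 3. The choice of the 9 used these counts, so nothing is read from these numbers.

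Fitted changes were large and imprecise in the sets with high libraries. Gabra6 had a log2 fold change of -2.26 ± 1.63 (SE, 6 libraries a set) for PBS 13 to 18 minus PBS 1 to 6 and -5.80 ± 2.52 for psilocybin 19 to 24 minus PBS 13 to 18. Cbln3 had -2.68 ± 1.70 and -4.96 ± 2.24 in the same comparisons, and Pcp2 had -2.17 ± 1.57 and -2.71 ± 1.87. For psilocybin 7 to 12 minus PBS 1 to 6 the 9 values lay between -1.92 ± 1.25 (En2) and -1.14 ± 0.64 (Zic2). For psilocybin 19 to 24 minus psilocybin 7 to 12 they lay between -6.32 (Gabra6) and -1.11 ± 0.66 (Zic2), with -5.92 ± 2.26 for Cbln3.

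Single libraries decided these values, and each of the 9 genes changed sign in the interaction when some 1 library was left out. Without library 12, all 9 genes passed the threshold for psilocybin 7 to 12 minus PBS 1 to 6, all lower, where 15.3% of all genes were lower, and Gabra6 moved from -1.74 to -6.30. Without library 18, all 9 passed for PBS 13 to 18 minus PBS 1 to 6, all lower, where 17.4% of all genes were lower, and Gabra6 moved from -2.26 to -9.23. In the second of these comparisons Zic2 alone passed without library 3, 5 or 12. The 9 were chosen by these counts, so these calls are a description, and nothing is read from them against the share of all genes. Without library 18, 7 of 9 genes changed sign for psilocybin 19 to 24 minus PBS 13 to 18, Gabra6 to 1.17 and Pcp2 to 3.55, with Cbln1 and Zic1 as the exceptions. Without library 12, Pcp2 and En2 changed sign for psilocybin 19 to 24 minus psilocybin 7 to 12, to 0.35 and 0.27. Without libraries 6, 1 and 12 together, 8 of 9 genes changed sign for PBS 13 to 18 minus PBS 1 to 6, Gabra6 to 2.55, with Zic2 as the exception. Without library 6, Gabra6, Cbln3, Pcp2 and Car8 shrank to -0.35, -0.31, -0.05 and -0.35 for psilocybin 7 to 12 minus PBS 1 to 6.

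With libraries 1, 6, 12 and 18 all left out, a choice made after seeing the data, the values of the low libraries can be read on their own. In PBS libraries 2 to 5, Gabra6 was 2.20, 6.50, 0.827 and 5.87 CPM, and in PBS libraries 13 to 17 it was 0, 0, 0.0584, 0 and 0.844 CPM. For PBS 13 to 18 minus PBS 1 to 6 the fit to the remaining 20 libraries gave -4.41 ± 1.26 for Gabra6, -4.41 ± 1.52 for Pcp2, -4.03 ± 0.98 for Fat2 and -3.76 ± 0.96 for Cbln3. Cbln1 gave -1.73 ± 0.45 and Zic2 -0.80 ± 0.23. These 6 of the 9 passed, all lower, where 22% of all genes were lower. Zic1, at -0.62 ± 0.29, En2, at -0.52 ± 0.67, and Car8, at -1.13 ± 0.50, did not. The 9 were chosen by these counts and several counts in PBS 13 to 17 are 0 or 1, so the values are a description. In the other 4 comparisons 0 of 9 passed, with 38.3%, 2.34%, 17.2% and 27% of all genes for psilocybin 7 to 12 minus PBS 1 to 6, psilocybin 19 to 24 minus PBS 13 to 18, psilocybin 19 to 24 minus psilocybin 7 to 12 and the interaction. At an unadjusted edgeR p under 0.05 these counts were 1, 1, 3 and 1, and no other tool was run on the 20 libraries.

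For psilocybin 19 to 24 minus PBS 13 to 18, the 20 libraries gave 1.17 ± 1.66 for Gabra6, 1.03 ± 1.11 for Cbln3 and 3.55 ± 1.55 for Pcp2, the last with 9.75 CPM in library 23 and at most 0.340 CPM in the other 5. For psilocybin 7 to 12 minus PBS 1 to 6 all 9 values stayed below 0, between -1.51 ± 0.92 (Gabra6) and -0.11 ± 0.29 (Zic1). Beside these values, the hippocampal list stood higher in PBS 1 to 6 than in every other set. Its summed level was 68.8 to 343.1 CPM in PBS libraries 1 to 6 and 24.2 to 47.0 CPM in the other 18, and the olfactory bulb list was 7.24 to 108.5 CPM against 5.44 to 11.7 CPM. Within PBS 1 to 6, the hippocampal and olfactory bulb lists were both highest in library 4 and lowest in library 6, where the cerebellar genes were highest. Library 1, next highest for the cerebellar genes, was also next highest for the hippocampal list, at 216.3 CPM, with 24.9 CPM for the olfactory bulb list. In library 4 the hippocampal sum rested largely on Fibcd1, at 297.6 CPM, and the olfactory bulb sum on Trh, at 101.8 CPM. In library 6 Fibcd1 was 20.7 CPM and Trh 1.06 CPM, and in library 3 Trh was 0.398 CPM and Cdhr1 9.08 CPM. Prox1 was highest in libraries 1 (52.0 CPM) and 6 (41.9 CPM). The part of these lists in the difference was not tested.

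**Figure D5:**
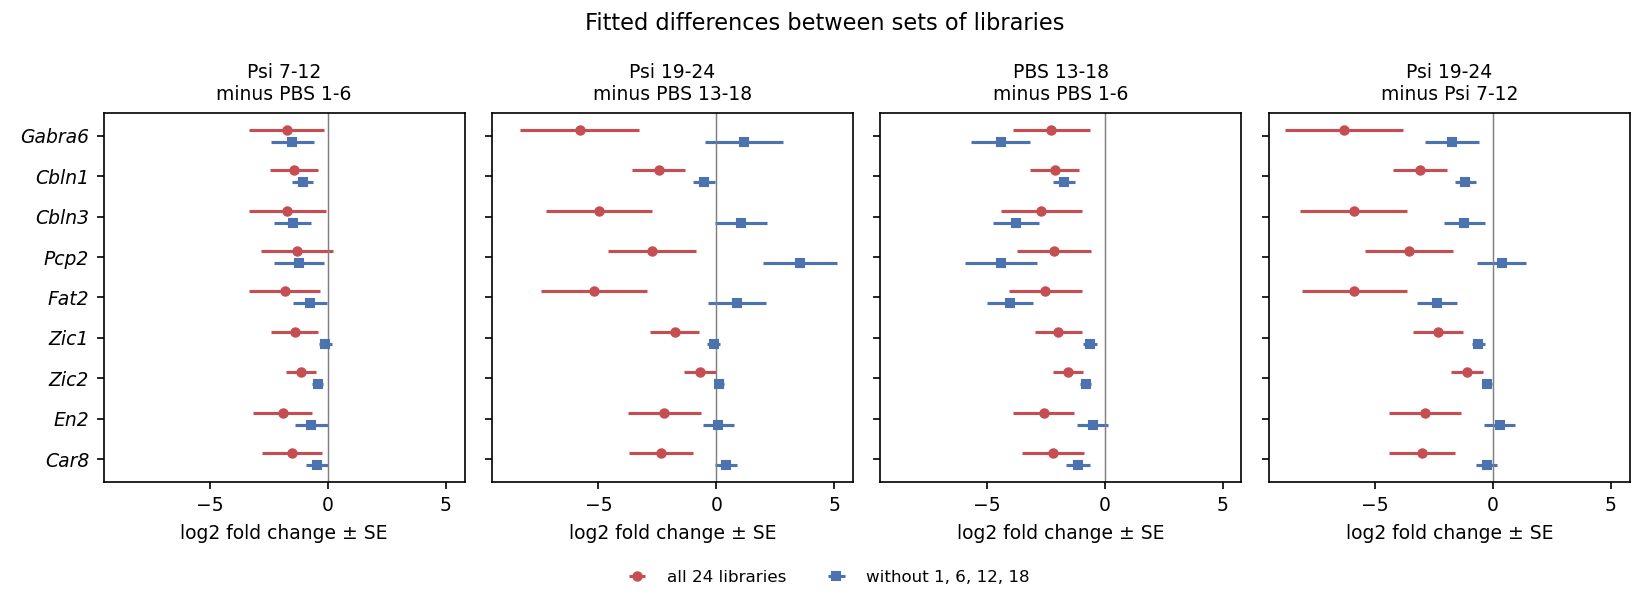
Log2 fold change with its SE (x axes) of the 9 genes (y axes) in 4 comparisons, fitted to all 24 libraries (circles) and without libraries 1, 6, 12 and 18 (squares). With all libraries every point lies below 0, and without them 7 of 9 change side for psilocybin 19 to 24 minus PBS 13 to 18 and 0 of 9 for both comparisons with PBS 1 to 6.

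The 25 other cerebellar genes gave few calls with all libraries. Ebf2, a factor of a subset of Purkinje cells, was the only one to change. It was lower in psilocybin 7 to 12 than in PBS 1 to 6, with a log2 fold change of -2.15 ± 0.71 and an edgeR adjusted p of 0.0306, among 12.8% of all genes. It was also lower in PBS 13 to 18 than in PBS 1 to 6, at -2.25 ± 0.71 and an edgeR adjusted p of 0.0191, among 16.5%. Its counts were 163, 31, 23, 26, 13 and 188 in PBS libraries 1 to 6, 7 to 41 in psilocybin 7 to 12 and 2 to 50 in PBS 13 to 18. The highest counts in the latter sets were those of libraries 12 (41) and 18 (50). These lay above the 31 counts of library 2, the highest in PBS 1 to 6 after libraries 1 and 6, and below those of libraries 1 and 6. The ranges of the latter sets thus overlapped that of PBS 1 to 6. In the other 3 comparisons 0 of 25 passed by edgeR and by DESeq2, with 0, 2 and 0 at an unadjusted edgeR p under 0.05 for psilocybin 19 to 24 minus PBS 13 to 18, psilocybin 19 to 24 minus psilocybin 7 to 12 and the interaction.

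These calls too rested on single libraries. For psilocybin 7 to 12 minus PBS 1 to 6 the count was 0 without library 1, 6, 7, 8, 9 or 11, 2 without library 2, 3, 4, 5 or 23, and 14 without library 12, all lower, where 15.3% of all genes were lower. Without library 10 the 1 gene called was En1 and not Ebf2. For PBS 13 to 18 minus PBS 1 to 6 it was 0 without library 1 or 6, 2 without library 2 or 12, and 14 without library 18, all lower, where 17.4% of all genes were lower. Ebf2, Barhl2, Cdh15, Eomes, Gdf10, Grid2ip, Homer3, Lhx1, Neurod1, Ppp1r17, Skor2 and Slc1a6 were called in both fits that gave 14. Of these, Barhl2, Eomes and Skor2 passed the filter only through libraries 1, 6, 12 and 18. Both fits drop the high library of the compared set and keep libraries 1 and 6 in PBS 1 to 6. Lower calls follow from that choice, so nothing is read from these counts against the share of all genes.

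Without the 4 libraries, a choice made after seeing the data, 22 of the 25 genes could be tested, and both directions appeared. The counts called were near or below the share of all genes, so nothing is read from them about cerebellar genes as a group. For PBS 13 to 18 minus PBS 1 to 6, 9 of 22 changed, where 43.1% of all genes did. Chn2, a Rac-directed signalling protein of granule cells, rose by 1.44 ± 0.20 on the log2 scale (edgeR adjusted p = 1.16e-05). Chn2 is also expressed in forebrain, at 15.0 to 43.3 CPM in PBS libraries 2 to 5 and 68.1 to 80.3 CPM in PBS libraries 13 to 17. Ppp1r17, Ebf2, Cdh15, Homer3, Slc1a6, Gdf10 and Neurod1 fell, from -3.73 ± 1.41 (Ppp1r17, adjusted p = 0.0383) to -0.33 ± 0.12 (Neurod1, adjusted p = 0.0283). For psilocybin 7 to 12 minus PBS 1 to 6, 6 of 22 changed, where 38.3% of all genes did. Among them Chn2 and Rgs8 rose, by 1.47 ± 0.20 and 0.42 ± 0.15, and Cdh15, Slc1a6 and Neurod1 fell, at -0.81 ± 0.31, -0.60 ± 0.16 and -0.44 ± 0.12. By edgeR 0 of 22 were called for psilocybin 19 to 24 minus PBS 13 to 18 and 0 between the psilocybin sets, with 0 and 1 at an unadjusted p under 0.05. The interaction called 6 of 22, where 27% of all genes were called, among them Cdh15, Slc1a6 and Neurod1 above 0 and Chn2 and Pax6 below it, from 1.37 ± 0.43 (Cdh15, adjusted p = 0.0229) to -1.41 ± 0.26 (Chn2, adjusted p = 0.00066).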

How the data were processed

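Poly-A RNA from mouse visual cortex was sequenced in 24 libraries. Per the study's methods, the authors removed adapters with cutadapt, dropped reads under 30 bp, mapped the rest with STAR to GRCm39 (the sample labels name mm10) and used htseq-count to assign reads to Ensembl genes. The authors deposited raw counts, without normalization. Annotation release and strand setting are not given in the sources used here. Symbols, coordinates and exon lengths came from GENCODE vM39 (GRCm39), which names 54749 of the 55414 genes, and promoters came from RefSeq (GRCm38.p6).

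The 9 genes, the marker lists and the tests were chosen with earlier results of these data known. The 14464 genes that reached 30 counts in some library (all 9 included, each also with 30 counts in another library than 1, 6, 12 and 18) were scaled by TMM and fitted in edgeR 4.0.16 (R 4.3.3) with 1 term per set over 24 libraries, using the quasi-likelihood test with Benjamini-Hochberg adjustment over all genes tested and a threshold of 0.05. All p-values are two-sided. The common biological coefficient of variation was 0.182, and the fit was tested on simulated data. No p-value is given for the 9 genes, and the counts of them that passed a threshold are a description. Also named, by rule, were the 25 other cerebellar genes, the 10 genes most like the 9 (log2 CPM, prior count 2) and up to 3 genes of each other list by mean CPM. Th, Slc6a3, Pax7, Six3, Tcf7l2 and Prkcd, and the genes that overlap members, fall outside it, chosen after values were seen. Values of some genes on the lists are not reported here. Alternatives were DESeq2 1.42.0 (the test the study used), DESeq2 size factors, other filters, only the 12 libraries compared, and fits without each library, without libraries 6, 1 and 12, and, chosen after seeing the data, without libraries 1, 6, 12 and 18. Sets share no replicate numbers.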

Additional observations from a re-analysis of the deposited data

Results flagged for a closer look

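Within each set of 6 libraries, a library was singled out when its gap to the nearest other library as a share of the set's range exceeded Dixon's 95% critical value, which chance does in about 1 in 20 groups. Over the 9 genes and 4 sets, 36 groups were examined and 24 met this. The 9 genes were chosen because a few libraries held high counts of them, so this outcome follows from the choice and the values are a description. In psilocybin libraries 7 to 12, library 12 stood apart for all 9 genes, with a gap of 0.97 of the range for Gabra6, 0.887 for Cbln1, 0.976 for Cbln3, 0.952 for Pcp2, 0.967 for Fat2, 0.944 for Zic1, 0.844 for Zic2, 0.955 for En2 and 0.945 for Car8. In PBS libraries 13 to 18, library 18 did so for all 9, with 0.994 for Gabra6, 0.961 for Cbln1, 0.995 for Cbln3, 0.999 for Pcp2, 0.994 for Fat2, 0.981 for Zic1, 0.901 for Zic2, 0.96 for En2 and 0.989 for Car8. In psilocybin libraries 19 to 24, library 23 did so for 6 genes, with 0.896 for Gabra6, 0.803 for Cbln3, 0.977 for Pcp2, 0.72 for Fat2, 0.845 for En2 and 0.934 for Car8. Cbln1, Zic1 and Zic2 did not meet it there. PBS libraries 1 to 6 gave no such value, and that set holds 2 high libraries, 1 and 6.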

How the results depend on the processing

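The count of other cerebellar genes called was 1 of 25 for psilocybin 7 to 12 minus PBS 1 to 6, 1 for PBS 13 to 18 minus PBS 1 to 6 and 0 in the other 3 comparisons. It was the same with DESeq2, DESeq2 size factors, filterByExpr and no filter. With only the 12 libraries compared it was 0 in each of the 4 pairwise comparisons. Without libraries 6, 1 and 12 it was 2 and 2 in the comparisons with PBS 1 to 6 and 2 for the interaction (Chn2 in each). Without libraries 1, 6, 12 and 18, chosen after seeing the data, it was 6, 9 and 6. Leaving out each library in turn gave 0 to 14 in both comparisons with PBS 1 to 6 and 0 to 0 in the other 3. The cause was not tested. No paired analysis was possible because the sets share no replicate numbers.

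Among the 9 genes, DESeq2, DESeq2 size factors and no filter changed the sign of 0 of 9 fold changes in all 5 comparisons. Leaving out libraries 6, 1 and 12 changed the sign of 8 of 9 for PBS 13 to 18 minus PBS 1 to 6 (Gabra6 from -2.26 to 2.55), of 2 (Pcp2 and En2) between the psilocybin sets and of 1 in the interaction, and of 0 in the other comparisons. Leaving out libraries 1, 6, 12 and 18 changed the sign of 7 of 9 for psilocybin 19 to 24 minus PBS 13 to 18, of 2 between the psilocybin sets and of 7 in the interaction. Counts of 0 to 3 in several low libraries limit the precision of Gabra6, Pcp2 and Fat2 there.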

Other observations

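Library 14, a PBS library with a low summed level of the 9 genes, held the most choroid plexus transcripts. The choroid plexus list summed to 151.7 CPM there, with 61.5 CPM in library 19 next and at most 19.0 CPM in PBS libraries 1 to 6. Ttr, the thyroid hormone carrier that choroid plexus secretes, had 2204 counts in library 14 (123.1 CPM), against 11 in library 1, 26 in library 6, 15 in library 12 and 25 in library 18. Pax7, a midbrain factor, had 133 counts in library 1 and 98 in library 14. Six3, a forebrain homeobox gene, had 173 counts in library 1, 165 in library 23, 95 in library 6, 50 in library 18 and 0 in library 12.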
